A study of Mus musculus with 8 samples.

Results

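The Frizzled genes, Fzd1 to Fzd10, were taken by symbol from a table of 47706 genes measured by RNA sequencing in mouse calvarial osteoblast cultures. All 10 were listed, each in a single row, and 9 had enough counts to be tested. RNA was taken on day 7 of differentiation, 24 hours after the addition of PTH to 4 cultures and of vehicle to another 4. The study's methods describe osteoblasts from the skullcaps of newborn mice, grown in osteogenic medium and serum-starved before treatment with PTH 1–34, the active fragment of parathyroid hormone, or with PBS as vehicle. The sample labels instead name adipogenic differentiation, and they give no genotype or strain. They do not say which cultures shared a preparation of cells, so p-values measure the spread between these samples, which may be technical.

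Frizzled proteins are multi-pass membrane receptors for Wnt ligands. An extracellular cysteine-rich domain binds the Wnt, and the intracellular face recruits Dishevelled, which can stabilize β-catenin together with the co-receptors LRP5 and LRP6 or signal through planar cell polarity and calcium pathways. In bone, Wnt signaling through β-catenin favors osteoblast differentiation and bone formation. The receptors fall into sequence subfamilies, namely Fzd1, Fzd2 and Fzd7, then Fzd5 and Fzd8, then Fzd4, Fzd9 and Fzd10, and last Fzd3 and Fzd6. The coding sequences of GENCODE M21 were aligned globally. By identity over the longer coding sequence, the closest relative of every member lay in its own subfamily. This identity was between 59.4% and 77.4% for the 8 pairs within a subfamily and between 44.6% and 64.7% for the other 37 pairs. The ranges overlap, and Fzd9 was closer to Fzd5 (62.8%) than to Fzd4 (59.4%), so identity alone did not give the grouping.

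A feature the members share is the Lys-Thr-X-X-X-Trp motif just after the last membrane span, which is known to bind Dishevelled. It was found once, in frame, in the coding sequence of every member. The codons of the motif are shown 5′ to 3′ from the GENCODE M21 transcripts of GRCm38, with the codons of its fixed residues in capitals, so that the members can be compared, and that of Fzd8 is not reported here.
Fzd1: AAGACActgaattccTGG
Fzd2: AAGACActgcactcgTGG
Fzd7: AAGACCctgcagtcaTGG
Fzd5: AAGACTctggagtctTGG
Fzd4: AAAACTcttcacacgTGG
Fzd9: AAGACTtttcagactTGG
Fzd10: AAGACCctgcagtccTGG
Fzd3: AAGACAtgctttgaaTGG
Fzd6: AAGACGtgcacagaaTGG
The motif was followed by 17 codons in Fzd1, Fzd2 and Fzd7, and by 159 in Fzd3 and 206 in Fzd6, the longest intracellular tails of the family. Fzd4 had 33 codons after it, and the remaining members had between 50 and 74.

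Total counts lay between 33605610 and 56090654 per sample. Tnfsf11, the gene of RANKL and a known PTH target, was higher in every PTH-treated sample (log2 fold change 6.48, adjusted p = 4.28e-11). The 12 osteoblast markers had a median of 208 to 353 CPM (counts scaled to the library size, with normalization by TMM) in the 8 samples, against 4.51 to 7.08 CPM for 10 adipocyte markers. The adipocyte marker Lpl was far above that median, at 395 CPM with vehicle and 429 CPM with PTH. So was Cebpa, at 75.6 CPM with vehicle and 72.4 CPM with PTH. Of 9 tested adipocyte markers, Pparg alone was downregulated (log2 fold change -1.50, adjusted p = 3.66e-07) and none was upregulated. None of the osteoblast markers was upregulated and 5 were downregulated, namely Sp7 (log2 fold change -1.78, adjusted p = 4.45e-06), Dmp1 (-1.12, adjusted p = 8.06e-04), Dlx5 (-0.92, adjusted p = 3.08e-05), the PTH receptor gene Pth1r (-0.70, adjusted p = 4.43e-04) and Runx2 (-0.33, adjusted p = 0.00362). All 12 summed to 92806 to 105149 CPM with vehicle and 86759 to 125300.3 CPM with PTH, with none at 0. Nearly all of that sum came from Col1a1, Col1a2 and Sparc, with means of 44362, 35071 and 16750 CPM with vehicle. None of these passed the threshold, so the sum says little about the other markers. Of 10 macrophage markers, 3 were upregulated, and the summed level of all 10 was 994 to 1615 CPM with vehicle and 1560 to 1999.7 CPM with PTH, with none at 0. Most of it was Lyz2, with a mean of 914 CPM with vehicle and 1417 CPM with PTH. Of all tested genes, 23.3% were upregulated and 22.5% downregulated. The 10 endothelial markers summed to 9.33 to 11.3 CPM, and Emcn was at 0. The part of the osteoblast, adipocyte or macrophage markers in the Frizzled changes was not tested. In these cultures fewer cells of a type cannot be told apart from less RNA per cell.

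All 9 tested Frizzled genes differed between PTH and vehicle, 4 upward and 5 downward. Fzd6, Fzd3, Fzd9 and Fzd1 were upregulated, and Fzd8, Fzd5, Fzd2, Fzd7 and Fzd4 were downregulated. Differential expression here means a Benjamini-Hochberg adjusted p under 0.05 in edgeR's quasi-likelihood test over 16736 genes, by which 45.8% of all tested genes differed, 23.3% upward and 22.5% downward. For each of the 9 genes, no PTH-treated sample fell within the range of the vehicle-treated samples, and the treatments were likewise apart for 43.0% of tested genes. In 6 of the 9, the adjusted p was under 0.05 and the log2 fold change at least 1 in either direction. Of all tested genes, 11.2% met both conditions. The median absolute log2 fold change was 1.33 for these members and 0.35 for all tested genes. Every tested member had at least 186 counts in every sample, so none passed the filter through a single treatment. Among the samples treated with PTH, replicate 2 had the smallest library and the lowest CPM for all of them but Fzd6. The part of depth was not tested. Without that sample the log2 fold change was 0.65 for Fzd1, -1.26 for Fzd2, 1.54 for Fzd3, -0.46 for Fzd4 and -2.04 for Fzd5. It was 2.02 for Fzd6, -0.51 for Fzd7, -2.25 for Fzd8 and 1.27 for Fzd9, so every direction stayed, and all 9 still passed the threshold.

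**Figure D1:**
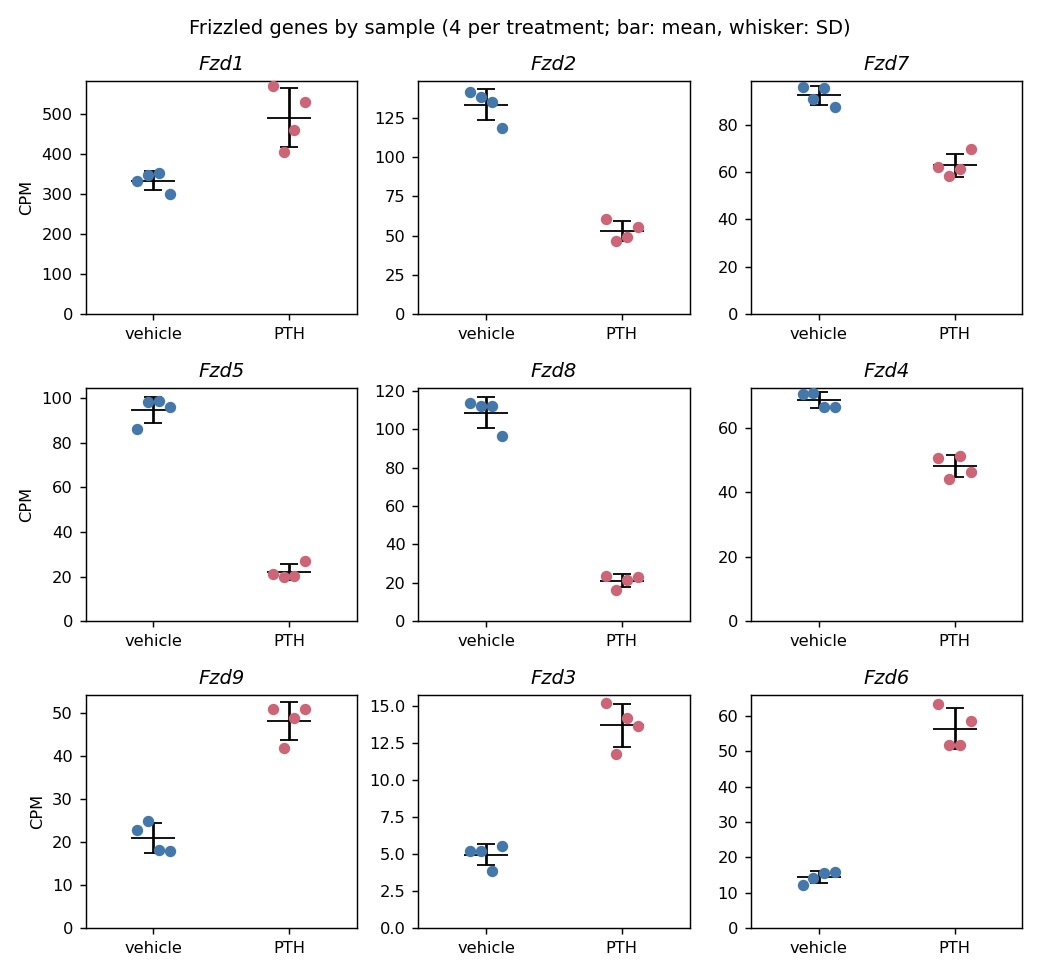
CPM (vertical axes, each from 0) of the 9 tested Frizzled genes in 4 vehicle-treated and 4 PTH-treated samples, with the mean and SD of each treatment. In every panel the points of the treatments are apart, from Fzd8 with at least 96.7 CPM against at most 23.4 CPM to Fzd1 with at most 352 CPM against at least 405 CPM.

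In the Fzd1, Fzd2 and Fzd7 subfamily, whose members are widely used receptors for the β-catenin pathway, the directions were mixed. Fzd1 lies on chromosome 5 from 4753839 to 4758035 in GRCm38 and has a single exon. It had 334, 349, 352 and 299.6 CPM in vehicle replicates 1 to 4 and 569.7, 405, 462 and 532 CPM in PTH replicates 1 to 4. PTH raised it 1.47-fold (log2 fold change 0.56, with a standard error, SE, of 0.104, adjusted p = 8.88e-04). Its spread with PTH was large beside that change, and the lowest PTH-treated sample was 1.15 times the highest vehicle-treated sample. Without each sample in turn, the log2 fold change of Fzd1 lay between 0.48 and 0.65.

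Fzd2, on chromosome 11 from 102604396 to 102608058, had 142, 138, 135 and 119 CPM in the vehicle-treated samples and 60.8, 46.5, 49.4 and 55.4 CPM in the PTH-treated samples. It was 2.51-fold lower with PTH (log2 fold change -1.33 with an SE of 0.0910, adjusted p = 2.05e-07). By identity over aligned bases, Fzd2 was closer to Fzd1 (82.7%) than to Fzd7 (78.6%). Fzd7, the closest to Fzd2 by identity over the longer coding sequence (77.4%), lies on chromosome 1 from 59482424 to 59486955. Its values were 96.0, 90.9, 95.3 and 87.4 CPM with vehicle and 62.2, 58.3, 61.4 and 69.7 CPM with PTH, a 1.47-fold decrease (log2 fold change -0.55 with an SE of 0.0691, adjusted p = 4.20e-05). Both are single-exon genes, and both were lower in every PTH-treated sample than in any vehicle-treated sample.

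Fzd5 and Fzd8, a pair of receptors also known for β-catenin signaling, had the largest decreases of the family. Fzd8, a single-exon gene on chromosome 18 from 9212163 to 9218136, had 114, 112, 112 and 96.7 CPM with vehicle and 23.4, 16.1, 21.5 and 23.2 CPM with PTH. That was 5.15-fold lower (log2 fold change -2.36 with an SE of 0.112, adjusted p = 7.91e-09), and 2.58% of tested genes had a larger absolute change. Fzd5, on chromosome 1 from 64730558 to 64737751, had 86.2, 98.3, 98.7 and 96.0 CPM with vehicle and 21.2, 19.6, 20.4 and 27.1 CPM with PTH. It was 4.29-fold lower (log2 fold change -2.10 with an SE of 0.101, adjusted p = 9.09e-09). A transcript of unknown coding status, Gm38058, overlaps Fzd5 on the opposite strand and had 150 counts in all 8 samples together. The strand setting of the counting is not given in the sources used here, so reads of the overlap cannot be told apart.

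In the Fzd4, Fzd9 and Fzd10 subfamily, Fzd4 was downregulated and Fzd9 upregulated. FZD4 is the receptor for Norrin as well as for Wnts and is best known from retinal vessels. Fzd4, on chromosome 7 from 89404355 to 89413134, had 70.6, 70.8, 66.4 and 66.4 CPM with vehicle and 50.6, 43.96, 51.2 and 46.4 CPM with PTH (log2 fold change -0.51 with an SE of 0.0678, adjusted p = 6.83e-05). The change of Fzd4 was the smallest of the 9, but its replicates were close, with a coefficient of variation of 3.65% with vehicle.

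Fzd9, a member with a known role in bone formation by osteoblasts, is a single-exon gene on chromosome 5 from 135248938 to 135251230. It had 22.9, 25.0, 18.05 and 18.02 CPM with vehicle and 51.0, 41.8, 48.9 and 51.1 CPM with PTH. PTH raised it 2.30-fold (log2 fold change 1.20 with an SE of 0.115, adjusted p = 4.40e-06), and the lowest PTH-treated sample was 1.67 times the highest vehicle-treated sample.

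Fzd10, on chromosome 5 from 128600844 to 128604093, was close to silent. Its counts were 6, 10, 10 and 17 in the vehicle-treated samples and 0, 7, 4 and 4 in the PTH-treated samples. It did not pass the filter on low counts and the treatments overlapped, so a difference was not detectable at this depth. When it was included, by DESeq2 or by edgeR with no filter, its adjusted p was 0.315 and 0.325.

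Fzd3 and Fzd6, receptors known for planar cell polarity, had the largest increases. Fzd6, on chromosome 15 from 39006034 to 39038188 with 7 exons, had 12.1, 14.1, 15.5 and 15.99 CPM with vehicle and 63.5, 51.9, 51.7 and 58.7 CPM with PTH. It rose 3.92-fold (log2 fold change 1.97 with an SE of 0.103, adjusted p = 1.93e-08), and 3.59% of tested genes had a larger absolute change. A noncoding transcript, Gm26704, overlaps its start on the opposite strand, with 210 counts in all samples together. Fzd3, on chromosome 14 from 65192449 to 65262463 and also with 7 exons, had 5.22, 5.21, 3.88 and 5.54 CPM with vehicle and 15.2, 11.8, 14.2 and 13.7 CPM with PTH. It rose 2.76-fold (log2 fold change 1.47 with an SE of 0.133, adjusted p = 2.58e-06), and no sample crossed between the treatments.

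Shared sequence between relatives was checked, because reads from near-identical stretches can be assigned to the wrong gene. No Frizzled transcript shared 150 bases at 95% identity with another member. Between members, the longest match found by blastn joined Fzd1 and Fzd2 over 1129 bases, and no match exceeded 88.7% identity.

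The ratio of related members within each sample compares their responses directly, and it does not depend on how libraries were scaled to each other. There were 6 pairs within a subfamily in which both members had been tested. The log2 ratio of Fzd1 to Fzd2 was 1.32 ± 0.0594 with vehicle and 3.21 ± 0.0609 with PTH (SD, n = 4 each; two-sided exact permutation test, p = 0.0286). The smallest p that 4 samples against 4 allow is 0.0286, which became 0.0429 after adjustment over the 6 pairs. Per kilobase of exon, Fzd1 thus went from 2.18 to 8.07 times the level of Fzd2. Fzd1 also gained on Fzd7, by 1.11 on the log2 scale (exact permutation p = 0.0286, adjusted 0.0429), and Fzd2 fell by 0.78 relative to Fzd7 (exact permutation p = 0.0286, adjusted 0.0429). The ratio of Fzd4 to Fzd9 fell by 1.72 (exact permutation p = 0.0286, adjusted 0.0429), from 1.12 to 0.341 per kilobase of exon. In Fzd1/Fzd2, Fzd1/Fzd7 and Fzd4/Fzd9, each gene alone was already apart between the treatments, in opposite directions. Their ratios therefore had to be apart, so these p-values were fixed in advance and add no support. Among the pairs with this p, only Fzd2/Fzd7 could have come out otherwise. Its adjusted value of 0.0429 was taken over all 6 pairs, and the pairs fixed in advance lowered it. An adjustment over the remaining pairs alone was not made, so Fzd2/Fzd7 is not read as passing the threshold.

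For Fzd5 and Fzd8, the log2 ratio was -0.20 ± 0.159 with vehicle and 0.07 ± 0.213 with PTH (SD, n = 4 each), and the treatments overlapped (exact permutation p = 0.143). Their decreases differed by less than the spread between replicates resolves, with a difference of 0.20 to 0.34 when each sample was left out. For Fzd3 and Fzd6, the log2 ratio was -1.53 ± 0.327 with vehicle and -2.04 ± 0.122 with PTH, also with overlap (exact permutation p = 0.0571, adjusted 0.0686). A shift of that size cannot be separated from replicate error with 4 samples in each treatment.

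**Figure D2:**
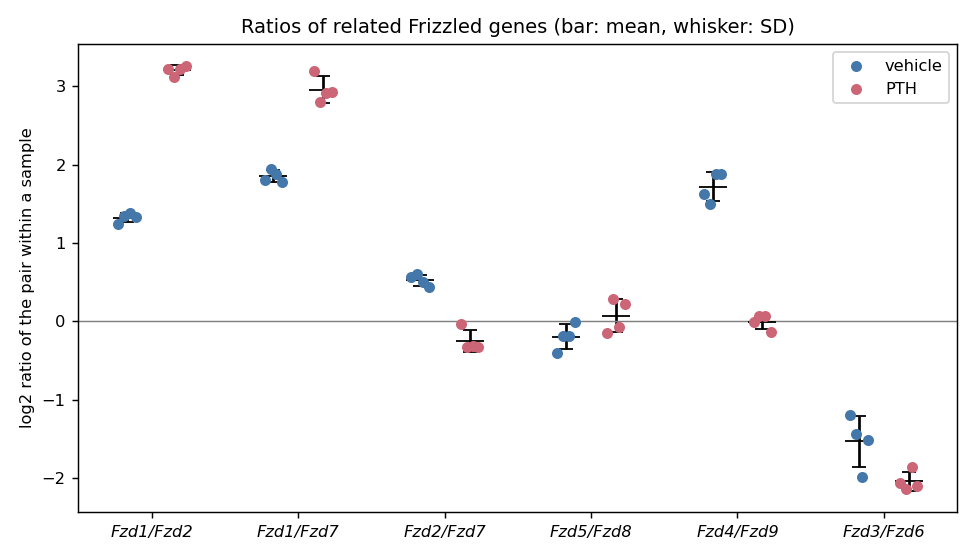
Log2 ratio of the CPM of related Frizzled genes within each sample (vertical axis) for 6 pairs, vehicle and PTH side by side, with mean and SD of 4 samples. The treatments are apart for Fzd1/Fzd2, Fzd1/Fzd7, Fzd2/Fzd7 and Fzd4/Fzd9 and overlap for Fzd5/Fzd8 and Fzd3/Fzd6.

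Levels of different genes were compared as CPM per kilobase of exon. With vehicle, Fzd1 was the most abundant at 79.5 ± 5.72 CPM per kilobase (SD, n = 4), followed by Fzd2 at 36.4 ± 2.76, Fzd7 at 20.4 ± 0.888, Fzd8 at 18.2 ± 1.34 and Fzd5 at 13.7 ± 0.845. Fzd4 at 10.2 ± 0.372 and Fzd9 at 9.15 ± 1.54 came next, and the ranges of their samples overlapped. Fzd6 had 2.99 ± 0.362, Fzd3 had 0.388 ± 0.0577 and Fzd10 had 0.0704 ± 0.0266 CPM per kilobase. All other neighbors in this order were apart in every sample.

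With PTH, Fzd1 remained the most abundant at 117 ± 17.5 CPM per kilobase, and Fzd9 at 21.0 ± 1.91 held the next place. Fzd2 at 14.5 ± 1.74, Fzd7 at 13.9 ± 1.07 and Fzd6 at 11.7 ± 1.19 followed, each overlapping its neighbor in this run. Fzd4 had 7.15 ± 0.514 CPM per kilobase, Fzd8 had 3.52 ± 0.568 and Fzd5 had 3.19 ± 0.492, and these last 2 overlapped. Fzd3 rose to 1.07 ± 0.113 CPM per kilobase and stayed below every other tested member. No gene changed place in either order when the longest coding transcript was used as the length. That length differs from the exon union only for Fzd3 (12734 against 12804 bases) and Fzd6 (4325 against 4818 bases). The other members kept the same length, so this check could hardly change the order.

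Summed over the family, the Frizzled level was 191 ± 11.0 CPM per kilobase with vehicle and 193 ± 23.9 with PTH, and the samples of the treatments overlapped. The makeup of that sum differed. Fzd1 made up 40.9% to 42.8% of it in the vehicle-treated samples and 58.8% to 62.5% in the PTH-treated samples. The sum of the other members was 103 to 116 CPM per kilobase with vehicle and 67.6 to 81.5 with PTH. Fzd2, Fzd4, Fzd5, Fzd7 and Fzd8, the downregulated members, together held 51.0% to 52.4% with vehicle and 20.6% to 22.9% with PTH. Fzd9 went from 4.78% ± 0.658 to 10.9% ± 0.561 of the sum and Fzd6 from 1.58% ± 0.258 to 6.08% ± 0.343 (SD, n = 4), while Fzd8 went from 9.52% ± 0.218 to 1.82% ± 0.129. These shares follow from the single-gene changes above and are given as a description.

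**Figure D3:**
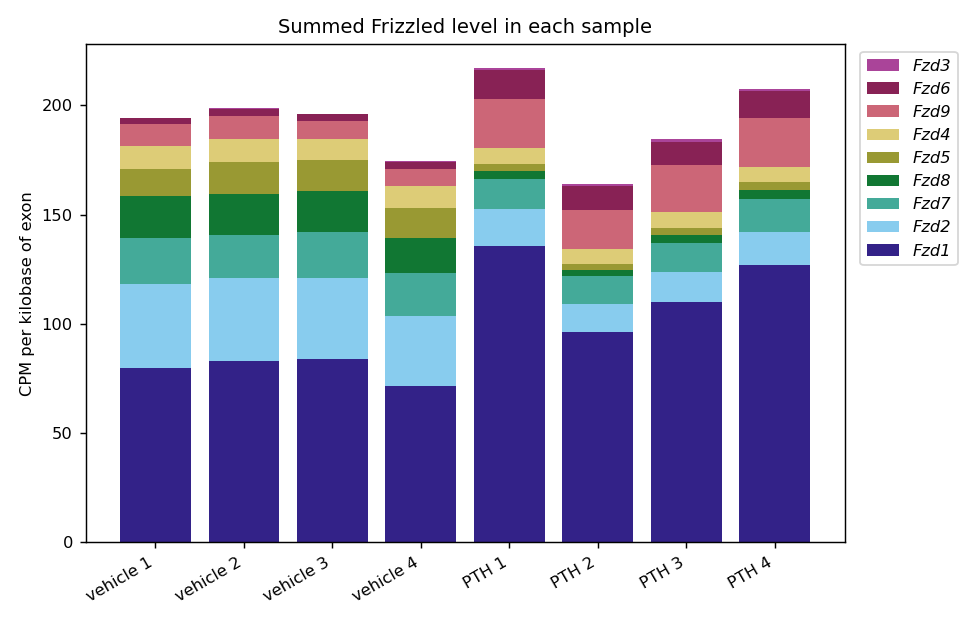
CPM per kilobase of exon of 9 Frizzled genes, stacked for each of the 8 samples (Fzd10, at most 0.105 CPM per kilobase, is left out). The bars are 175 to 199 high with vehicle and 164 to 217 with PTH, and the Fzd1 segment is larger and the Fzd2, Fzd8 and Fzd5 segments smaller in all 4 PTH-treated samples.

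Smo, which encodes Smoothened, the Hedgehog transducer of the same receptor class, fell from 184 ± 3.30 to 139.9 ± 11.7 CPM (log2 fold change, log2FC, of -0.39, adjusted p = 5.99e-04). Of 7 co-receptor genes, all tested, 2 were upregulated and 1 was downregulated. For this list and those below, the shares of all tested genes were 23.3% upward and 22.5% downward. Counts near these shares say nothing particular about a list. Lrp6, which encodes a co-receptor of Frizzled in the β-catenin pathway, rose from 236 ± 17.6 to 483 ± 21.5 CPM (log2FC 1.03 with an SE of 0.0732, adjusted p = 2.84e-07). Ror1, a receptor tyrosine kinase that binds Wnt5a, rose from 14.0 ± 0.746 to 23.7 ± 3.95 CPM (log2FC 0.75, adjusted p = 1.61e-04). Lrp5, the paralog of Lrp6, had a log2 fold change of -0.28 (adjusted p = 0.0293), but the treatments overlapped and the adjusted p was above 0.05 in 6 of 8 fits that each left out a sample. Ror2 (-0.23, adjusted p = 0.141), Ryk (-0.13, adjusted p = 0.305), Ptk7 (-0.03, adjusted p = 0.868) and Musk (-0.33, adjusted p = 0.367) did not pass. Ror2 did pass without PTH replicate 1 (-0.33, adjusted p = 0.0329).

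ZNRF3 and RNF43 are membrane ubiquitin ligases that remove Frizzled receptors from the cell surface, and R-spondins bound to LGR4, LGR5 or LGR6 hold these ligases in check. Of 9 genes of this system, 8 were tested, 1 was upregulated and 5 were downregulated, with a median log2 fold change of -0.53 against -0.00 for all tested genes. Among all tested genes, 23.3% were upregulated and 22.5% downregulated. Znrf3 fell from 12.1 ± 0.407 to 8.34 ± 1.42 CPM (log2FC -0.53, adjusted p = 0.00433). Rnf43 was low, at 1.19 ± 0.254 and 0.614 ± 0.184 CPM with at most 74 counts (log2 fold change -0.96, adjusted p = 0.0343), and its adjusted p was above 0.05 in 5 of 8 fits that each left out a sample. Rspo3 (log2 fold change -1.13, adjusted p = 6.23e-08) and Rspo2 (-0.96, adjusted p = 4.96e-06), which encode R-spondins, were both downregulated. Among the R-spondin receptors, Lgr4 rose from 41.0 ± 3.11 to 90.0 ± 12.8 CPM (log2FC 1.13, adjusted p = 1.95e-06) and Lgr5 fell from 239 ± 25.7 to 167 ± 15.9 CPM (log2FC -0.52, adjusted p = 6.84e-04). Lgr6 (0.27, adjusted p = 0.575) and Rspo1 (0.34, adjusted p = 0.0726) did not pass, and Rspo4 had too few counts to be tested. Rspo1 did pass without vehicle replicate 1 (0.47, adjusted p = 0.0140).

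**Figure D4:**
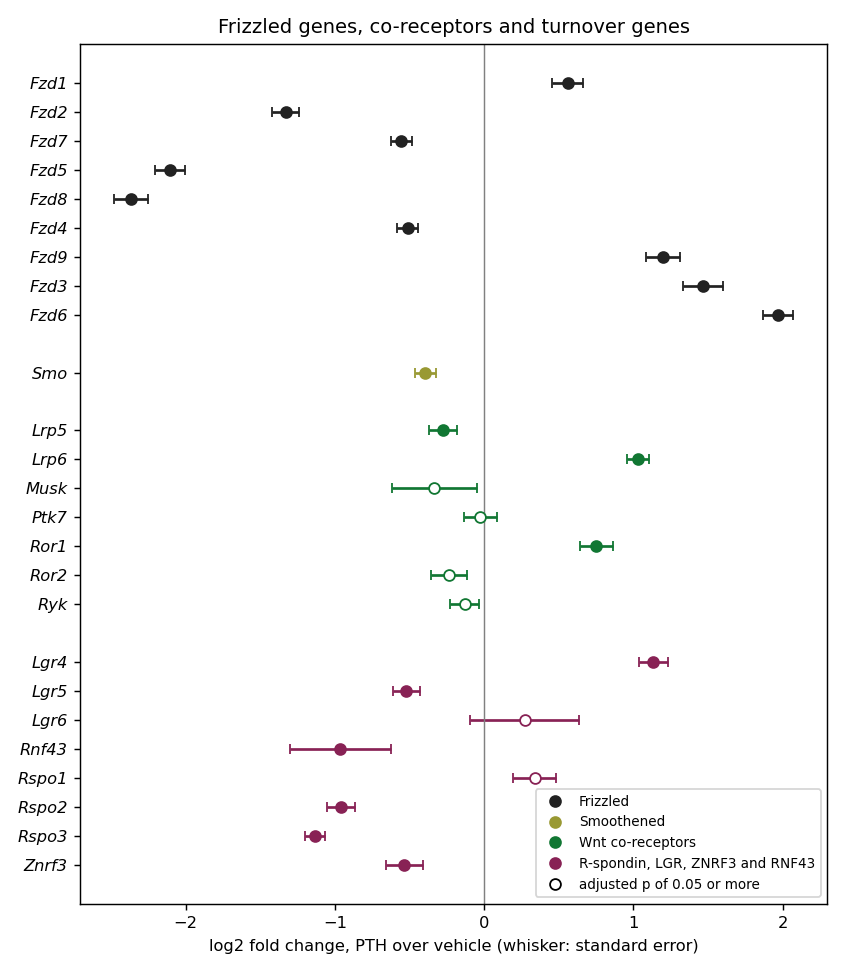
Log2 fold change of PTH over vehicle with its standard error (horizontal axis) for 9 Frizzled genes ordered by subfamily, Smo, 7 co-receptor genes and 8 genes of Frizzled turnover. Filled points have an adjusted p under 0.05. The Frizzled genes lie between -2.36 (Fzd8) and 1.97 (Fzd6), and none is an open point.

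Further along the pathway, 4 of 14 Dishevelled and destruction complex genes were upregulated and 5 downregulated, a mixed pattern. Beside these counts and the next ones stand 23.3% of all tested genes upregulated and 22.5% downregulated. The ends were Csnk1a1 (log2 fold change 0.84, adjusted p = 1.36e-06), which encodes a kinase of β-catenin, and Amer1 (-1.99, adjusted p = 1.11e-07), which encodes a scaffold that binds APC. Of 12 planar polarity genes, 3 were upregulated and 5 downregulated. Daam2, which encodes a formin that binds Dishevelled, rose from 48.6 ± 1.35 to 283 ± 11.8 CPM (log2FC 2.54, adjusted p = 2.44e-11), while Invs had a log2 fold change of -0.84 (adjusted p = 1.50e-06). Of 13 genes for other Frizzled partners, 12 were tested, 2 were upregulated and 3 downregulated. Reck, whose product takes part in Wnt7 recognition, had a log2 fold change of -0.44 (adjusted p = 0.00337). Mfrp had 1.67 (adjusted p = 0.0316) on at most 73 counts, with overlap between the treatments and an adjusted p of 0.05 or more in 6 of 14 alternative fits. Shisa3, the other upregulated gene of this list, went from 9.17 ± 0.429 to 21.1 ± 1.88 CPM (log2FC 1.20, adjusted p = 4.99e-07), with the treatments apart.

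The secreted Frizzled-related proteins carry the same cysteine-rich domain and can bind Wnts outside the cell. Of 5 genes, 4 were tested, 1 was upregulated and 2 were downregulated, the former being Sfrp4 (log2 fold change 1.85, adjusted p = 5.59e-08). Here and for the Wnt genes, the shares of all tested genes were 23.3% upward and 22.5% downward. Sfrp2, at 3487 ± 306 CPM with vehicle and 2786 ± 357 CPM with PTH, had a log2 fold change of -0.32 (adjusted p = 0.0273) that did not pass in 7 of 14 alternative fits. Of 19 Wnt ligand genes, 12 were tested, 6 were upregulated and 2 downregulated, from Wnt4 (6.06, adjusted p = 2.71e-10) to Wnt10b (-0.58, adjusted p = 0.0193). Wnt4 was near the floor with vehicle, at 0.508 ± 0.127 CPM against 33.9 ± 6.56 CPM with PTH, so the size of its fold change is uncertain. The change of Wnt10b did not pass without PTH replicate 3 or without vehicle replicate 1, with an adjusted p of up to 0.0586.

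The genes with the profile closest to each tested Frizzled gene over the 8 samples were found by the root mean square difference of log2 CPM, each profile centered on its own mean, among 14070 genes of at least 1 CPM. The samples share treatment and library, so likeness mostly means a change of the same size. For Fzd8 the closest were Bmp4 (0.107), Snai2 (0.117) and Slitrk6 (0.151), and for Fzd5 they were Zc3hav1l (0.0804), Cdc42ep1 (0.137) and Ephb3 (0.142). Fzd2 was closest to Foxd1 (0.0638), Pdk2 (0.0916) and Htr1b (0.0948), and Fzd7 to Fez2 (0.0387), Tbc1d13 (0.0436) and Cemip (0.0463). Fzd4 was closest to Elk3 (0.0450), Dpp3 (0.0481) and Fut10 (0.0482). No Frizzled gene was among the 3 closest of another. Among the upregulated members, Fzd6 was closest to Bag3 (0.0850), Tacc1 (0.0870) and Nup98 (0.0971), and Fzd3 to Mvk (0.107), Arrdc3 (0.118) and Arpc3 (0.120). The closest to Fzd9 were Plpp3 (0.0959), Arhgap28 (0.105) and Lmx1b (0.114), and to Fzd1 they were Cmtm4 (0.0625), Olfml2b (0.0628) and 2900026A02Rik (0.0650).

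RefSeq promoter windows of GRCm38.p6, from 250 bases before to 50 bases after a gene's start, were at hand for 6 members, Fzd1, Fzd4, Fzd5, Fzd7, Fzd9 and Fzd10. The start is that of RefSeq. All 250 bases before it in Fzd10, and 183 of them in Fzd9, lie inside the GENCODE M21 gene. For these members the window is largely annotated gene sequence. PTH acts in osteoblasts largely through cAMP, so the windows were searched on both strands for the cAMP response element TGACGTCA and its core TGACG. Neither was in any of the 6 windows, while 1.79% of 32851 promoter windows held the element and 20.8% held the core, which lies within the element. The RUNX core TGTGGT (16.8% of all windows) and the AP-1 site TGANTCA (7.81%) were in none of the 6 windows. The TCF/LEF core CTTTGA (16%) was in that of Fzd1 alone, and the GC box GGGCGG (35.7%) was in those of the other 5 members. The 250 bases before the start are printed for Fzd1 (upregulated) and for Fzd7 and Fzd5 (downregulated), with matches of any of these motifs on either strand in capitals, to set the promoters of members side by side. They lie at chr5:4758217-4758466 on the minus strand, chr1:59481897-59482146 on the plus strand and chr1:64737751-64738000 on the minus strand.
Fzd1: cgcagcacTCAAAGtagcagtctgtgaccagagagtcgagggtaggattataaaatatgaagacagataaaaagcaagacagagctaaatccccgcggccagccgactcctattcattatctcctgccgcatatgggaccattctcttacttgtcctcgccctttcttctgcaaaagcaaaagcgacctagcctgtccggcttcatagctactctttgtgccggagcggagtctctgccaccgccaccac
Fzd7: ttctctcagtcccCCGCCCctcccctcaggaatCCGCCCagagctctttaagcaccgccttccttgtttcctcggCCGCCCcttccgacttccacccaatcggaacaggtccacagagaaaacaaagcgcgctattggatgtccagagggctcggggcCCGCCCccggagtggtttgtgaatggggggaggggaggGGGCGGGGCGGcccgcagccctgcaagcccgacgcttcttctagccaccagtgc
Fzd5: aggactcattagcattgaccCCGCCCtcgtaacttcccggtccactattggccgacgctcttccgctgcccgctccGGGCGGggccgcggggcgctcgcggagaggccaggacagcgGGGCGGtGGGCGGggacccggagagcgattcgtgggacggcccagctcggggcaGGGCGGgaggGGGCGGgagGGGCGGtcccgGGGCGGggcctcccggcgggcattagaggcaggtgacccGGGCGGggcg
G and C made up 51.2% of the Fzd1 stretch, 65.2% of that of Fzd7 and 76.4% of that of Fzd5. A match is a description of letters only, and so is its absence.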

How the data were processed

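Per the study's methods, poly(A)-enriched libraries were read in pairs, aligned to GRCm38 with HISAT2 and assembled with StringTie2. The authors deposited a whole-number count per gene and sample, made by StringTie2's companion script from transcript coverage and not scaled between samples. Tool versions, the annotation, the strand setting and the read length given to that script are not given in the sources used here. Total counts were 33605610 to 56090654 per sample, which limits genes with few counts. A read length set wrongly would scale all counts alike, so counts halved were an alternative.

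Each column bears the title of 1 sample, from which its treatment was taken. Genes passing edgeR's filterByExpr (minimum count 10, minimum total 15) were compared between PTH and vehicle with edgeR 4.0.16 (TMM, two-sided quasi-likelihood F-test, Benjamini-Hochberg adjustment over all tested genes, threshold 0.05) in R 4.3.3. DESeq2 1.42.0 was an alternative. Both steps were tested on simulated counts. CPM used TMM-scaled library sizes, log2 CPM a prior count of 2, and levels per kilobase the union of GENCODE M21 exons. Ratios were compared by exact permutation over the 70 assignments of samples in SciPy 1.17.1. Sequences were compared with Biopython 1.88 and blastn 2.17.0.

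The members, gene lists and tests were chosen with earlier results of these data known. Named were all members, Smo, tested co-receptor and turnover genes, the called extremes of each other list, Tnfsf11, Pth1r and the 3 closest profiles per member. The called osteoblast markers, Pparg, Shisa3, and the abundant markers Col1a1, Col1a2, Sparc, Lyz2, Lpl and Cebpa were named after their values were seen. Alternatives were DESeq2, its size factors in edgeR, no filter, the replicate number as a block, each sample left out, counts summed by symbol, a log2 fold change of at least 1, another gene length and other log offsets.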

Additional observations from a re-analysis of the deposited data

Results flagged for a closer look

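Of the groups of 4 samples checked for a sample far from the other 3, 4 of 62 were marked, where chance marks about 1 in 20. Fzd8 in vehicle replicate 4 was at 96.7 CPM, against 112 to 114 CPM in the other vehicle-treated samples, all far above the PTH-treated samples. The log2 ratio of Fzd2 to Fzd7 in PTH replicate 1 was -0.033, against -0.33 to -0.31 in the others. Ror1 in PTH replicate 1 was at 29.5 CPM, against 21.0 to 22.2 CPM. Znrf3 in vehicle replicate 1 was at 11.5 CPM, against 12.2 to 12.3 CPM.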

How the results depend on the processing

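The 9 tested Frizzled genes kept their direction and their side of the threshold in all 14 alternative fits: 8 that each left out a sample, and those with the replicate block, with no filter, with counts halved or summed by symbol, with DESeq2 and with its size factors in edgeR. The largest adjusted p among these was 0.00530, for Fzd1. With a minimum log2 fold change of 1 there remained 3 upregulated and 3 downregulated members, and 1882 of all genes. The labels number samples 1 to 4 in each treatment but do not say that a number pairs samples, so the numbers were not taken as pairs. Residuals of same-numbered samples correlated by -0.041 to 0.027 across genes. Samples with different numbers were not compared in this way, so these values cannot exclude pairing. With the replicate block, 7003 genes were called in place of 7669, and 4 Frizzled genes were upregulated and 5 downregulated, as without it. Leaving out each sample gave 6671 to 8074 called genes. Another prior count and raw counts left the calls of all 6 pair ratios as they were. Leaving out 1 sample turned the sign of 2 genes that did not pass with all samples, Ptk7 (-0.11 to 0.071 on the log2 scale, above 0 without PTH replicate 2 or 3) and Lgr6 (-0.035 to 0.46, below 0 without PTH replicate 1).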
